A study of Mus musculus with 8 samples.

Results

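Glycine tRNA-derived features are the rows of a mouse sperm small RNA count table that name a copy of a glycine tRNA gene. They were chosen by name alone: every structural RNA row whose identifier begins with the tRNA label for glycine, grouped by the codon in the name. The rule found 69 rows among 1074 tRNA rows and 1010917 rows in all, and 58 of the 69 held distinct counts. The codon name GGY had 25 rows (20 distinct), GGA had 36 (32 distinct) and GGG had 8 (6 distinct). Each row is called here by its codon name and copy number as the table gives them, so tRNA-Gly-GGY_copy5 is 1 annotated copy.

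Transfer RNAs carry amino acids to the ribosome, and cells also cut them, often in the anticodon loop, into stable fragments. Such fragments make up a large part of the small RNA of mature mouse sperm, and sperm are known to gain many of them while passing through the epididymis, the duct in which they mature. Fragments from the 5′ end of the glycine tRNA with anticodon GCC are among the best known of these, and in mouse embryonic stem cells and embryos they have been linked to the repression of genes driven by the MERVL retroelement. GGY stands for the glycine codons that end in C or T, which anticodon GCC reads. GGA is read by anticodon TCC and GGG by anticodon CCC. A count in a row may come from a fragment or from a whole tRNA, which the table does not tell apart.

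The 8 libraries were made from spermatozoa of C57BL/6J mice. Of these, 4 were Control-Cessation libraries and 4 were EtOH-Cessation libraries, from males given alcohol and then kept without it, for a month according to the title of the series. The labels used here do not state the alcohol dose, its route, the age of the animals or whether each library came from its own animal. P-values therefore measure only the spread between these libraries, which may be technical. The series' own design note names caput epididymis, whereas every sample is labelled as spermatozoa. The comparison asks which sperm RNAs differ after alcohol has been stopped.

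Total counts per library lay between 3116421 and 6805989. EtOH library 2 stood apart: exon features took 30.5% of its counts against 7.07 to 10.4% in the other 7, and it had the lowest total. EtOH library 4 stood apart as well: structural RNA features took 55.0% of its counts against 27.9 to 37.5% in the other 7. All tRNA rows, with identical rows counted once, took 44.2% of its counts against 22.3 to 30.1%. Summed counts per 1000000 counts of the library (CPM) of 12 epididymal epithelium marker genes were 360 to 499 in controls and 2563, 17668, 727 and 1290 in EtOH libraries 1 to 4. All 14 tested features of these genes had a fold change above 0, none past the threshold, while Lcn5, Lcn8, Lcn9, Rnase9, Defb20, Cst8 and Spink13 were at 0 in at least 1 library. Most of each sum came from Crisp1, Cd52 and Adam7, which held 12224, 3472 and 1922 CPM in EtOH library 2. Lcn5 had 0.69, 0, 0.92 and 0 CPM in controls and 1.05, 1.60, 0.15 and 0.35 in EtOH libraries. General epithelium markers summed to 28.9 to 61.0 CPM in controls and 75.4 to 869 in EtOH libraries, and sperm markers to 450 to 577 and 300 to 427. The other ranges, controls first, were 2.52 to 7.36 and 2.20 to 5.45 for leukocyte, 15.6 to 32.5 and 1.62 to 17.7 for red blood cell, 18.0 to 102 and 15.6 to 42.6 for smooth muscle, and 2.31 to 9.67 and 4.26 to 21.8 for Sertoli and somatic testis markers. The share of microRNA counts was 16.8 to 27.7% in controls and 6.96 to 10.1% in EtOH libraries. The part of these differences in the glycine values below was not tested. In bulk libraries of this kind, fewer cells of a type and less RNA per cell cannot be told apart.

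No glycine row passed the threshold (adjusted p below 0.05) between the groups. In edgeR's quasi-likelihood test over 10234 tested features, 34 glycine rows were tested and 0 of them were called, with 0 at an unadjusted p under 0.05. Over all tested features, 19 were called, or 0.186% (0.0489% higher and 0.137% lower in EtOH), and 17.9% were higher and 9.15% lower in EtOH at an unadjusted p under 0.05. DESeq2 and limma voom also called 0 glycine rows, with 1 row each at an unadjusted p under 0.05, against 17.1% and 6.4% of all features called after adjustment. Fold changes are given as log2 of EtOH over control. Their median over the 34 rows was -0.05, with 13 above 0 and 21 below, beside a median of -0.25 over 472 tested tRNA rows and -0.09 over all features. Every one of the 34 rows had overlapping values in the groups, whereas 7.34% of all tested features lay wholly above and 7.81% wholly below the controls in EtOH.

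The 69 rows fell into very unequal levels. Mean counts were 1000 or more in 21 rows (14 GGY and 7 GGA), 100 to 1000 in 9, 10 to 100 in 5 and below 10 in 34. The 35 rows that the filter on low counts removed were 27 GGA, 5 GGY and 3 GGG rows, and they held 0.0159% of all glycine counts. The lowest rows inside the filter were GGA_copy50 with 98 counts over the 8 libraries and GGA_copy80 with 149. Just outside it were GGA_copy85 with 83 counts and GGA_copy20 with 78. Many abundant rows were also near-copies, with all 8 counts within 5% of each other, and the tested rows formed 15 such families: 9 GGY, 3 GGA and 3 GGG. Counted once per family, 10 fold changes were above 0 and 5 below, with a median of 0.25. The lengths of the annotated copies are not in the table, so levels below are per row and not per length.

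Among the GGY rows with identical counts, 1 set of 3 is named here by tRNA-Gly-GGY_copy5. This row does not have the highest level of the GGY rows. It held 7810, 8390, 9924 and 10370 counts in controls and 19032, 4261, 9947 and 24700 in EtOH libraries 1 to 4. On the scale of CPM after TMM scaling, called scaled CPM below, this was 2060, 2569, 2789 and 2546 in controls and 2969, 1290, 1506 and 4765 in EtOH libraries. EtOH libraries 2 and 3 lay below all controls, and EtOH libraries 1 and 4 above all of them. The mean level was 2491 ± 307 scaled CPM in controls and 2633 ± 1605 in EtOH (SD, n = 4 each). It was 3080 ± 1632 in EtOH without library 2 and 1922 ± 913 without library 4, on either side of the control mean. The log2 fold change was 0.08 (SE 0.43, 95% interval -0.86 to 1.02, edgeR adjusted p = 0.937). tRNA-Gly-GGY_copy41 had 155, 237, 645 and 308 scaled CPM in controls and 364, 207, 192 and 841 in EtOH. Here a control, library 3, reached 645, so the control spread was wide as well (336 ± 215, against 401 ± 303 in EtOH, SD, n = 4 each). Its log2 fold change was 0.25 (SE 0.55, edgeR adjusted p = 0.838).

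Below these lay GGY rows of much lower level. tRNA-Gly-GGY_copy26 had 19.8, 25.4, 28.1 and 24.8 scaled CPM in controls and 50.2, 18.2, 17.4 and 51.1 in EtOH libraries. EtOH libraries 1 and 4 were the highest of the 8 and libraries 2 and 3 the lowest, and the fold change was 0.48 (SE 0.45, edgeR adjusted p = 0.538). tRNA-Gly-GGY_copy2, with 11, 15, 12 and 19 counts in controls and 64, 13, 20 and 48 in EtOH, had the lowest p of the GGY rows. Its scaled CPM was 3.88 ± 0.883 in controls and 6.55 ± 3.58 in EtOH (SD, n = 4 each), with EtOH libraries 1 and 4 again above every control. The log2 fold change was 0.76 (SE 0.46, 95% interval -0.23 to 1.75, unadjusted p = 0.122, edgeR adjusted p = 0.309). tRNA-Gly-GGY_copy42 held 7.38 to 14.6 scaled CPM in controls and 6.21 to 21.8 in EtOH, a fold change of 0.37 (edgeR adjusted p = 0.67). tRNA-Gly-GGY_copy8 averaged 71.7 ± 19.6 and 65.4 ± 17.7, a fold change of -0.13 (edgeR adjusted p = 0.88).

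Among GGA rows nearly all counts sat in 1 family of 7 rows, 5 of them distinct, headed by tRNA-Gly-GGA_copy15. Its counts were 1661, 1629, 2077 and 2056 in controls and 2693, 1088, 2491 and 4296 in EtOH libraries. In scaled CPM the controls held 438 to 584, while EtOH libraries 1, 2 and 3 lay at 420, 330 and 377, all below the lowest control, and EtOH library 4 at 829. The means were 506 ± 59.7 and 489 ± 230 scaled CPM (SD, n = 4 each), a log2 fold change of -0.05 (SE 0.38, 95% interval -0.87 to 0.77, edgeR adjusted p = 0.956). The place of EtOH library 1 depended on the scaling. As CPM of the library total, its GGA rows summed to 2045, above control libraries 1 and 2 at 1918 and 1948.

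tRNA-Gly-GGA_copy80 had the lowest p of all glycine rows, on few counts. It held 14, 11, 11 and 8 counts in controls and 27, 32, 24 and 22 in EtOH libraries, which were deeper in 3 cases of 4. Scaled for depth this was 3.69, 3.37, 3.09 and 1.96 scaled CPM against 4.21, 9.69, 3.63 and 4.24, so that control library 1 lay above EtOH library 3. The log2 fold change was 0.81 (SE 0.43, 95% interval -0.11 to 1.74, unadjusted p = 0.0788, edgeR adjusted p = 0.24). EtOH library 2 held the highest value, and the EtOH mean level was 5.45 ± 2.84 with it and 4.03 ± 0.343 without it, against 3.03 ± 0.751 in controls. In DESeq2 this was the row at an unadjusted p under 0.05, beside 19.9% of all features higher at that level, and in limma voom the row was tRNA-Gly-GGY_copy2, beside 16.1%. tRNA-Gly-GGA_copy50, the other low GGA row, had a fold change of 0.45 (SE 0.55, edgeR adjusted p = 0.676).

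The GGG rows were the smallest group. The row with the highest level, tRNA-Gly-GGG_copy12, is 1 of 2 rows with identical counts. It held 93.1, 90.0, 182 and 120 scaled CPM in controls and 101, 41.5, 105 and 412 in EtOH libraries. EtOH library 4 alone lay above every control, and the EtOH mean level of 165 ± 167 became 82.5 ± 35.6 without it, against 121 ± 42.4 in controls. The log2 fold change was 0.45 (SE 0.59, 95% interval -0.84 to 1.73, edgeR adjusted p = 0.704), and it became -0.53 without EtOH library 4. tRNA-Gly-GGG_copy11 averaged 63.1 ± 23.8 and 56.1 ± 17.6 scaled CPM, a fold change of -0.17 (edgeR adjusted p = 0.857). tRNA-Gly-GGG_copy16 averaged 44.6 ± 6.18 and 41.5 ± 21.9, a fold change of -0.10 (edgeR adjusted p = 0.917).

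**Figure D1:**
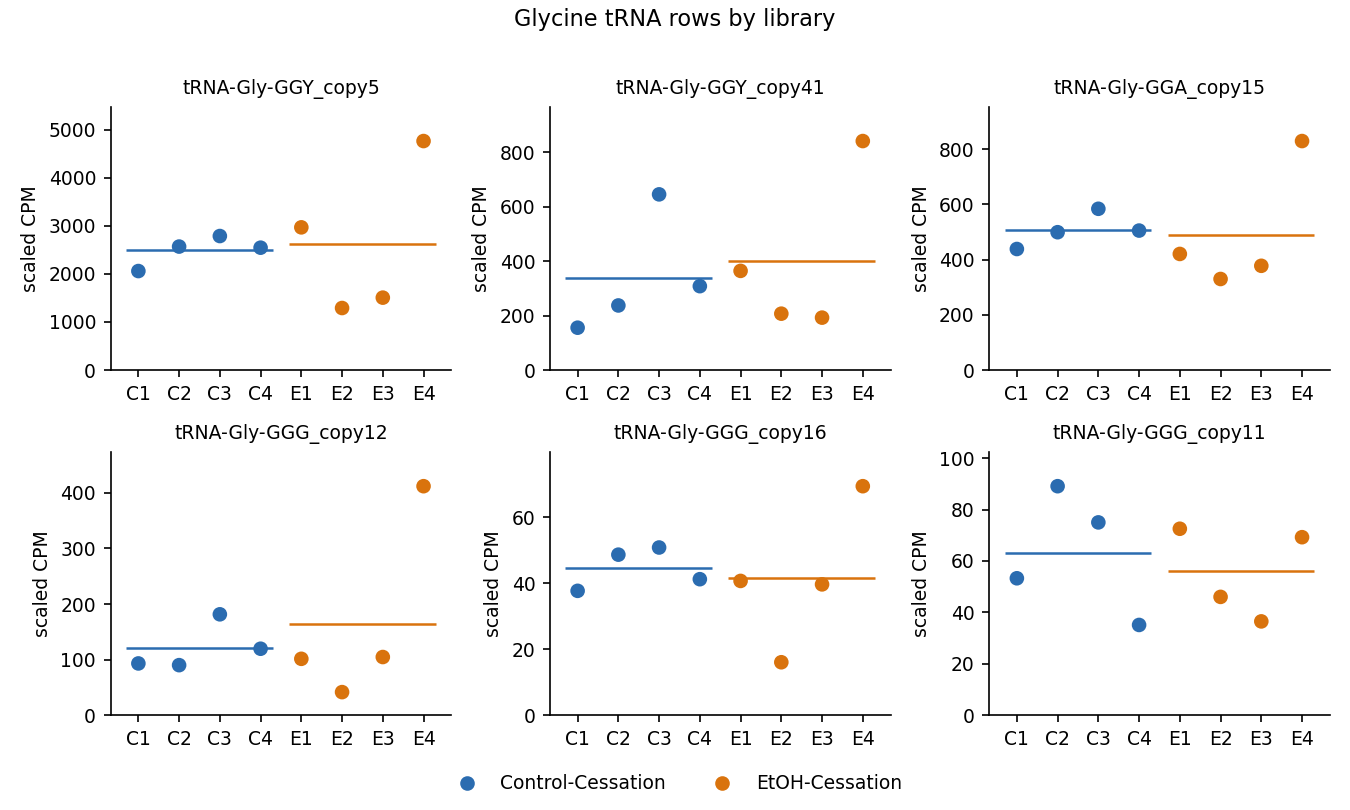
Scaled CPM (vertical axes, from 0) of 6 named glycine tRNA rows in each of the 8 libraries; each point is 1 library, each short line a group mean. In the panel of tRNA-Gly-GGY_copy5 the EtOH libraries run from 1290 to 4765 and the controls from 2060 to 2789.

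**Figure D2:**
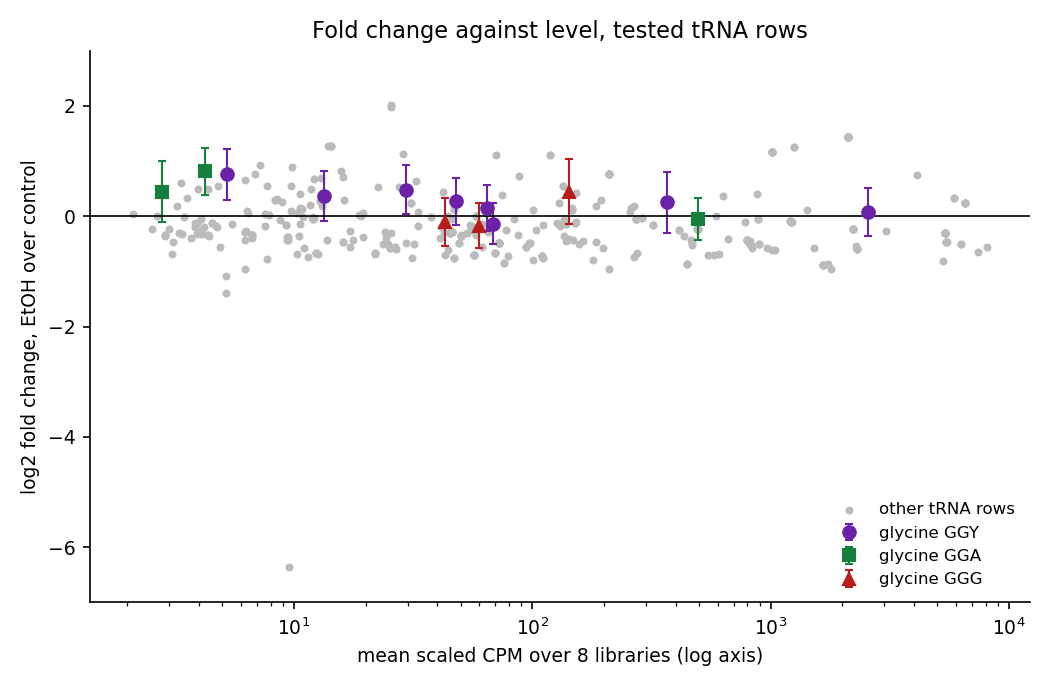
Log2 fold change of EtOH over control (vertical axis) against mean scaled CPM (log axis) for the tested tRNA rows. Coloured symbols are glycine families with standard error bars, except the family whose first row is not reported here. Grey points are the rows of other amino acids. The glycine families drawn lie between -0.17 and 0.81. Counted by row, the median is -0.05 for glycine and -0.25 for all tested tRNA rows.

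Summed by codon name, with identical rows counted once, glycine rows held 53099, 54675, 76574 and 70824 CPM of the library total in controls and 78685, 31801, 45637 and 118393 in EtOH libraries. EtOH library 2 had the lowest and EtOH library 4 the highest of the 8 sums. The tRNA rows of all amino acids also took their largest share of counts in EtOH library 4. The mean sum was 63793 ± 11695 CPM in controls and 68629 ± 38568 in EtOH (SD, n = 4 each), a difference of 4836 (exact two-sided permutation p = 0.857, adjusted p = 0.914 over 11 tests). With 4 libraries against 4 the smallest exact p is 0.0286. Without EtOH library 4 the difference was -11752 CPM, and without EtOH library 2 it was 17112. Because a read may have been counted at several copies, these sums are not molecule counts. With near-copies counted once, glycine rows held 0.58 to 2.03% of the library total in place of 3.18 to 11.8%.

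GGY rows made up most of each sum, at 61457 ± 11441 CPM in controls and 65975 ± 37516 in EtOH (difference 4518, exact permutation p = 0.857). GGA rows held 1918, 1948, 2407 and 2169 CPM in controls and 2045, 1786, 1846 and 3793 in EtOH libraries, so EtOH library 4 exceeded the other 7. Their difference of means was 257 CPM (exact permutation p = 0.914). GGG rows held 225 ± 46.0 and 287 ± 191 CPM, a difference of 61.7 (exact permutation p = 0.771). All 3 codon sums overlapped between the groups.

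The balance of the codon names varied little among controls. The GGY share of glycine counts was 96.0, 96.0, 96.5 and 96.7% in controls and 97.1, 94.0, 95.5 and 96.3% in EtOH libraries, a difference of means of -0.58 percentage points (exact permutation p = 0.514). EtOH library 1 had the highest and EtOH library 2 the lowest share, and without library 2 the difference was 0.00023. The log2 ratio of GGA to GGY was -4.85 ± 0.127 in controls and -4.69 ± 0.497 in EtOH (difference 0.16, exact permutation p = 0.629). The log2 ratio of GGG to GGY was -8.09 ± 0.212 and -7.88 ± 0.287 (difference 0.22, exact permutation p = 0.257).

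Within the pool of tRNA counts, the glycine share was 21.2, 19.9, 25.4 and 26.8% in controls and 27.4, 13.2, 20.5 and 26.8% in EtOH libraries. EtOH library 2 was far below the rest and EtOH library 1 the highest. The means were 23.3 ± 3.33% and 22.0 ± 6.63%, a difference of -1.38 percentage points (exact permutation p = 0.8), which was 1.54 without EtOH library 2. Glycine ranked 1 to 3 among amino acids by share in every library, but 3 to 6 when near-copies were counted once, at 10.1 ± 2.09% in controls and 10.7 ± 3.54% in EtOH, a difference of 0.54. The rank of glycine in the pool and the sign of this difference therefore both depended on how copies were counted.

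Glutamate and valine tRNAs are further abundant sources of sperm tRNA fragments. Aspartate was chosen because its features lay highest in earlier results of these data. Glycine was compared with each of these amino acids as a log2 ratio of summed counts. Against glutamate the ratio was -0.09, -0.20, 0.38 and 0.12 in controls and 0.47, -0.27, 0.37 and 0.45 in EtOH libraries, with EtOH library 2 the lowest of the 8 and EtOH libraries 1, 3 and 4 close to or above the highest control. The difference of means was 0.20 (exact permutation p = 0.4), and 0.38 without EtOH library 2 (exact permutation p = 0.0857). Against valine the ratio was 0.96, 0.92, 0.30 and 0.98 in controls and 0.63, 0.27, 0.63 and 0.23 in EtOH. All EtOH libraries lay below 3 of the controls, and control library 3 lay among the EtOH libraries. The difference of means was -0.35 (exact permutation p = 0.114, adjusted p = 0.629 over 11 tests). Without control library 3 it was -0.51 (exact permutation p = 0.0286, the smallest that 4 against 3 allows, adjusted p = 0.314). That library was the control that overlapped, so leaving it out separated the groups and fixed this p in advance. It is no further evidence of a difference. The adjustment covers the 11 tests of that setting and not the 8 libraries left out in turn.

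Against aspartate the log2 ratio was 2.09, 2.18, 2.94 and 2.70 in controls and 2.05, -1.30, 1.86 and 2.28 in EtOH libraries. EtOH library 2 was the library in which aspartate exceeded glycine, with aspartate at 32.4% of its tRNA counts. The difference of means was -1.26 (exact permutation p = 0.114, adjusted p = 0.629 over 11 tests), and -0.42 without EtOH library 2 (exact permutation p = 0.229). Without EtOH library 4 it was -1.61 (exact permutation p = 0.0286, adjusted p = 0.314). EtOH library 4 was the EtOH library that lay among the controls, so here too leaving it out fixed the p in advance. As aspartate was chosen from earlier results of these data, its ratio is no independent evidence of a difference. After adjustment over the 11 tests no sum, share or ratio passed the threshold, the lowest adjusted p being 0.629.

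**Figure D3:**
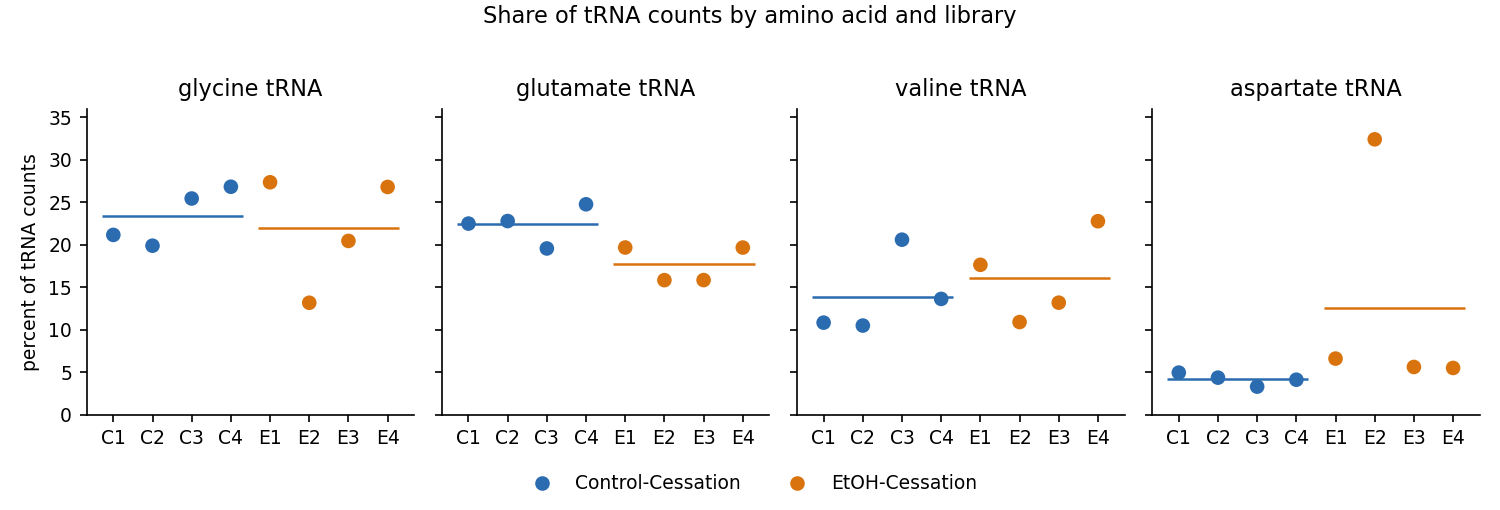
Percent of tRNA counts (vertical axis) taken by glycine, glutamate, valine and aspartate rows in each of the 8 libraries, identical rows counted once; each point is 1 library and each line a group mean. EtOH library 2 has the lowest glycine share, 13.2%, and the highest aspartate share, 32.4%.

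Glycine sums were further apart among EtOH libraries than among controls. The coefficient of variation of the summed glycine CPM was 18.3% in controls and 56.2% in EtOH, and the highest library held 1.44 and 3.72 times the lowest. In EtOH this was the third highest coefficient of 21 amino acid groups, after aspartate at 89.9% and valine at 66.3%, with glutamate at 43.7%. These values are a description of 4 libraries per group and were not tested. The EtOH libraries carry identifiers of 2 forms, M for libraries 1 and 2 and EM for libraries 3 and 4, whose meaning the labels do not give. Each form held a library above the control mean and a library below it: the glycine difference from controls was -8550 CPM for the M form and 18222 CPM for the EM form, with 2 libraries each.

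A list of 40 genes for enzymes that charge, modify, process or cut tRNAs was read in the same libraries. Of these, 37 had counts, on 374 exon features, and 0 features passed the filter on low counts, so none could be tested. Gars, the enzyme that charges tRNAs with glycine, had 5, 13, 9 and 12 counts in controls and 32, 84, 18 and 37 in EtOH libraries. Nsun2, which methylates cytosines in tRNAs, had 10, 12, 7 and 7 counts against 29, 68, 26 and 31. Rnh1, an inhibitor of ribonucleases, had 6, 11, 15 and 9 against 40, 72, 21 and 40. Dicer1, an endonuclease of small RNA pathways, had 30, 36, 38 and 20 against 61, 81, 35 and 74. EtOH library 2 had the highest count of each of the 4. These counts are not scaled for depth. Of the list, 26 genes had counts in all libraries. As CPM of the library total, 8 of these, Nsun2, Rnase10, Rnaset2a, Rnaset2b, Ssb, Trmt6, Xpot and Polr3b, lay wholly above the controls in EtOH and 0 wholly below. Over all 11051 genes with exon counts in all libraries, 21.3% lay wholly above and 0.905% wholly below. The groups overlapped for Gars, Rnh1 and Dicer1. The list summed to 53.9 to 71.0 CPM in controls and 93.9, 356, 69.9 and 103 in EtOH libraries. The share of exon features and the sum of epididymal markers were also highest in EtOH library 2. Ang, the ribonuclease known for cutting tRNAs in the anticodon loop, had 2, 0, 1 and 0 counts in controls and 1, 4, 0 and 1 in EtOH, and as its locus overlaps that of Rnase4 its counts are uncertain. Alkbh1, which removes methyl groups from tRNA, had 67, 73, 13 and 11 counts in controls and 5, 10, 13 and 6 in EtOH, with the high values in control libraries 1 and 2. These genes were named as examples of their roles after their values had been seen.

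The RefSeq annotation of GRCm38.p6 lists 28 glycine tRNA genes among 430 tRNA genes: 14 with anticodon GCC, 7 with TCC, 6 with CCC and 1 with ACC. The GCC and CCC genes are 71 bases long and the TCC genes 72. Of the TCC genes, 7 of 7 stand next to an aspartate or glutamate tRNA gene, as do 5 of the GCC and 3 of the CCC genes. The table has 69 glycine rows for these 28 annotated genes, so part of its rows are copies that RefSeq does not list as tRNA genes, and the rows could not be matched to single genes by name.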

How the data were processed

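Small RNA of 8 mouse sperm libraries was sequenced, and per the labels only read 1 was kept. Cutadapt is named, with no version, in the submitters' processing notes. The aligner, genome build, annotation and treatment of reads that match several copies are unknown here (not given in the sources used here). The values are raw counts per annotated feature, deposited by the authors as 1 table of 8 columns. Library totals, 3116421 to 6805989 counts, set the counting precision. The widest 95% Wilson interval of the glycine share of tRNA counts was 0.155 percentage points, for counting error only and too narrow where a read was counted at several copies.

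Counts were fitted over the whole table with edgeR 4.0.16 (glmQLFit and glmQLFTest) in R 4.3.3, with filterByExpr (minimum count 10, minimum total 15), the totals of the tested features as library sizes, TMM scaling and Benjamini-Hochberg adjustment over all features tested, at 0.05. DESeq2 1.42.0 and limma 3.58.1 (voom with quality weights) were alternatives. Scaled CPM uses those library sizes, and sums use CPM of the whole library. Rows with identical counts were summed once. Near-copies are rows whose 8 counts lie within 5% of the first of them. Sums, shares and ratios were compared by exact two-sided permutation over 70 splits, adjusted over 11 tests. The fit was tested on simulated data.

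Rows named are the 3 distinct rows with the highest mean level of each codon name and the 4 with the lowest p in each direction. The count of enzyme genes whose groups do not overlap was added after the data were seen. The members and lists were chosen with earlier results of these data known. Alternatives were scaling, filter, tool, treatment of copies, identifier form and each library left out. A result for 1 row that this rule names is not reported here.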

Additional observations from a re-analysis of the deposited data

Results flagged for a closer look

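In groups of 4 libraries, a library was marked where its gap to the nearest other took a larger part of the group's whole range than Dixon's 95% critical value. This marked 7 of 46 groups of values examined, where chance marks about 1 in 20. The groups share libraries and rows, so the marks are not independent.

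EtOH library 2 was marked 3 times. Its log2 ratio of glycine to glutamate was -0.27, against 0.37 to 0.47 in the other EtOH libraries. Its log2 ratio of glycine to aspartate was -1.30, against 1.86 to 2.28. Its level of tRNA-Gly-GGA_copy80 was 9.69 scaled CPM, against 3.63 to 4.24. EtOH library 4 was marked 2 times: its GGA sum was 3793 CPM, against 1786 to 2045, and its tRNA-Gly-GGG_copy12 level was 412 scaled CPM, against 41.5 to 105. Among controls, library 3 had a log2 ratio of glycine to valine of 0.30, against 0.92 to 0.98, and library 1 had 1.05 scaled CPM of tRNA-Gly-GGA_copy50, against 2.70 to 2.81.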

How the results depend on the processing

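Of 209 values recomputed with another scaling, filter, tool, treatment of copies or identifier form, 172 kept their direction and their side of the threshold, 35 changed sign and 2 passed a threshold newly. The 172 include enzyme counts from settings in which 0 enzyme features were tested, where the count could only be 0. Sign changes were counted whatever their size. That of tRNA-Gly-GGA_copy15 with median-of-ratios factors, from -0.05 to 0.025, is far smaller than its SE of 0.38. No glycine row passed the threshold in any of the 18 other settings of the fit, and the lowest adjusted p of a glycine row lay between 0.115 and 0.413. The cause of the sign changes was not tested. The median fold change of all features moved from -0.09 to 0.18 with library size alone, and sign changes of the rows there accompany that shift.

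The glycine share of tRNA counts differed by 0.54 percentage points with near-copies once, 0.25 with the most abundant row of each codon name and 0.30 with the EM libraries alone. With TMM-scaled library sizes the differences of total, GGY and GGA sums were -4738, -4690 and -78.0 CPM. Without microRNA counts in the denominator they were -4932, -4894 and -67.7. With median-of-ratios factors the total and GGY differed by -2151 and -2247. With the M libraries alone, total, GGY, GGA and GGG differed by -8550, -8315, -196 and -39.3. The enzyme count was 1, a feature of Alkbh1 that was lower in EtOH, in 2 settings. With no filter its log2 fold change was -3.22, among 374 enzyme features tested. There 1642 of 867194 features were called over the whole table. With the M libraries alone the fold change of the same feature was -3.28, among 2 enzyme features tested. In that setting 2572 of 13606 features were called.

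Log2 fold changes that changed sign were, for tRNA-Gly-GGA_copy15, 0.025 with median-of-ratios factors, 0.21 with library size alone, 0.032 with no filter, 0.23 within tRNA features, 0.35 with the EM libraries alone and 0.025 in DESeq2. Those of tRNA-Gly-GGG_copy11 were 0.12 with library size alone, 0.19 within tRNA features and 0.081 in limma voom. Those of tRNA-Gly-GGG_copy16 were 0.13 with library size alone, 0.047 with no filter, 0.17 within tRNA features and 0.40 with the EM libraries. Those of tRNA-Gly-GGY_copy8 were 0.16 with library size alone, 0.23 within tRNA features and 0.039 in limma voom. With the M libraries alone, tRNA-Gly-GGG_copy12 had -0.88, tRNA-Gly-GGY_copy41 had -0.37 and tRNA-Gly-GGY_copy5 had -0.35, and with a mean count of at least 10 the last had -0.028.

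Leaving out 1 library at a time gave -11752 to 17112 CPM for the total, -11503 to 16547 for GGY, -219 to 450.4 for GGA and -30.1 to 115 for GGG. The glycine share of tRNA ranged from -3.19 to 1.54 and the GGY share of glycine from -1.03 to 0.00023 percentage points. Log2 ratios ranged from 0.12 to 0.38 against glutamate, -0.51 to -0.28 against valine, -1.61 to -0.42 against aspartate, -0.047 to 0.34 for GGA to GGY and 0.11 to 0.35 for GGG to GGY. Calls were 0 to 0 for glycine features. They were 0 to 0 for enzyme features as well, but only 0 to 2 enzyme features were tested in these fits. Where 0 were tested, the count could only be 0. Fold changes ranged from -0.35 to 0.29 for tRNA-Gly-GGY_copy5, -0.37 to 0.75 for tRNA-Gly-GGY_copy41, -0.40 to 0.18 for tRNA-Gly-GGA_copy15, -0.076 to 0.79 for tRNA-Gly-GGA_copy50, -0.53 to 0.77 for tRNA-Gly-GGG_copy12 and -0.44 to 0.16 for tRNA-Gly-GGG_copy16. No paired analysis was possible because the labels give no shared replicate numbers.

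The number of features called over the whole table moved with the setting, from 19 to 487 without EtOH library 2, 2332 without EtOH library 3 and 3 without EtOH library 4. With 4 libraries per group, the standard errors of the glycine rows named were 0.38 to 0.59. The intervals of the log2 fold change given above ran from -0.86 to 1.02 for tRNA-Gly-GGY_copy5 and from -0.84 to 1.73 for tRNA-Gly-GGG_copy12. The lack of calls among glycine rows therefore does not exclude shifts as large as these intervals allow, and not only small ones.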

Other observations

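The proportions between single glycine rows varied across libraries to different extents. The count of tRNA-Gly-GGG_copy12 was 247, 185, 357 and 290% of that of tRNA-Gly-GGG_copy16 in controls and 249, 258, 264 and 593% in EtOH libraries, with the highest in EtOH library 4. By contrast tRNA-Gly-GGG_copy11 stayed at 65.3 to 96.4% of tRNA-Gly-GGY_copy8 in all 8 libraries, although the codon names differ. tRNA-Gly-GGY_copy41 was at 167 to 355% of tRNA-Gly-GGG_copy12 in controls and 184 to 499% in EtOH. These pairs were chosen after their values were seen, and the ratios were not tested.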
